A study of Rattus norvegicus with 16 samples.

Results

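The genes that build and read the extracellular matrix were followed in cultured rat hepatocytes given SQ1 or pravastatin. The set holds each gene whose rat symbol begins with Col and a digit, with Lama, Lamb or Lamc, or with Itga or Itgb. An array has 2 channels, 1 for each RNA, and a gene entered when 1 of its probes was clearly brighter than background in 6 or more of all 32 channels. Of 46 such genes with a named probe, 38 passed, out of 20395 genes tested. They were 14 collagen chains, 6 laminin chains, 9 integrin alpha and 6 integrin beta subunits, and 3 genes that only carry an integrin in their name. The 8 that did not pass were Lama1, Itgal, Itgb7, Col4a4, Col7a1, Col13a1, Col23a1 and Itgb1bp2. The RefSeq table lists 85 symbols of this form. Partners such as Col4a2, Col5a2, Col6a1, Lama3, Lamb1, Itga6 and Itgav had no named probe and were not analysed here.

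The cells were primary hepatocytes of male Sprague Dawley rats kept in Williams Medium E. At 48 hours after plating they were left untreated, given 100 µM SQ1 or given 30 µM pravastatin, and RNA was taken after a further 48 hours. SQ1 is a code name in the labels and is known in this field as squalestatin 1, which inhibits squalene synthase. Pravastatin inhibits HMG-CoA reductase, an earlier enzyme of the same pathway. Each of 16 arrays held treated RNA in one dye and untreated RNA in the other, with 8 arrays for each drug and 4 in each dye orientation. The submitters call the arrays biological replicates, but nothing used here says how many animals they came from, so p-values measure the spread between these arrays.

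Collagens are secreted triple-helical proteins: the fibrillar types form the cables of connective tissue, type IV forms the mesh of basement membranes, and other types decorate fibrils or form finer networks. Laminins are trimers of an alpha, a beta and a gamma chain that polymerise in basement membranes. Integrins are membrane receptors, each an alpha subunit paired with a beta subunit, that bind these proteins and couple them to actin. In liver most fibrillar collagen is made by stellate cells and fibroblasts, which can accompany hepatocytes into culture.

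The arrays gave even signals, with a median spot brightness of 588 to 663 in the A555 dye and 790 to 1076 in the A647 dye. Across genes, log ratios of any pair of SQ1 arrays correlated at 0.757 to 0.956, and those of any pair of pravastatin arrays at 0.604 to 0.910. All 17 measured genes of cholesterol synthesis, its regulation and uptake rose with SQ1, with a median log2 change of 2.38. All 17 rose with pravastatin, with a median of 2.22. On pravastatin replicate 1, 98 spots had an uneven local background, which reached 65332 against a median of 306. With their own local background in the correction, the typical size of that array's log ratios (the median absolute deviation) was 0.0332. It was 0.111 once the array's median background took its place. On the other 15 arrays it was 0.0881 to 0.177 either way. The median background was therefore used for such spots in the correction, and the spots themselves were left out of the values in either case. In the value table that the submitters deposited beside the scanner files, each column matched the array with its number but given the other drug, at a correlation of 0.938 to 1.00 against 0.421 to 0.562 for its own label. Drug names here follow the scanner files, whose names and labels agree, and all names of drugs below would be exchanged under the table's column labels.

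With SQ1 10 of 14 collagen chains fell, the laminin chain Lamb3 rose 2.06-fold, and of 15 integrin subunits 2 rose and 8 fell. Of the 38 genes, 6 rose and 21 fell with SQ1 at a limma adjusted p under 0.05, termed called here. Over all genes tested, 32.7% rose and 31.1% fell. Their median log2 change was -0.10, against 0.01 for all genes. Among them 8 were called and changed at least 1.5-fold, in a background of 7.54%: Lamb3 rose, and Col5a3, Col3a1, Itga8, Col14a1, Col1a2, Col4a1 and Col1a1 fell. For Col1a1, Col4a1, Itga8 and Col14a1 that size held only for the brighter of 2 probes. The means of the probes were -0.36 for Col1a1, -0.36 for Col4a1 and -0.40 for Itga8. The other probe of Col14a1 gave -0.33. With pravastatin 8 rose and 6 fell, against 20.8% and 20.7% of all genes, and none reached 1.5-fold, where 2.15% of all genes did. The median with pravastatin was -0.01, against 0.00 over all genes.

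Most called genes moved one way over arrays and scan days. They were called on these same arrays, which favours such agreement, so it is no separate support. Of the 27 called with SQ1, 20 moved the same way on all 8 arrays, and Col9a2, Itga1, Itga4, Itgb5, Itgbl1 and Lamb2 were among those that did not. Of the 14 called with pravastatin, 12 did so, and Col14a1 and Itgb3bp did not. All 27 and all 14 had means of their called sign on each of the 2 scan days, though 19 of the 27 were larger on the second day. Over all probes past the filter, SQ1 log ratios were also larger that day. Their median absolute deviation was 0.162 to 0.177 an array, against 0.137 to 0.150 on the first day. The count is therefore not read as a trait of these genes.

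Same-numbered arrays of both drugs carry the same control number and scan day, and their residuals correlated at 0.157 to 0.643. For SQ1 replicates 2, 7 and 8 a pravastatin array of another number correlated more. The residuals were taken without a scan day term, so pairing by number was not separated from scan day. A fit with the replicate number as a block called more genes. For SQ1 the block gave 30 called genes, 7 up and 23 down, where it called 70.0% of all genes, and added Itgb1 (0.09, adjusted p = 0.031), Itga7 (-0.06, 0.038) and Itgam (-0.07, 0.027). For pravastatin it gave 22, 13 up and 9 down, where it called 51.6% of all genes, with the 8 additions Col1a1 (0.18, adjusted p = 0.0048), Col1a2 (-0.12, 0.014), Col5a1 (0.06, 0.030), Col8a1 (-0.12, 0.0084), Col18a1 (0.08, 0.0030), Itga1 (-0.14, 0.0096), Itgam (0.08, 0.020) and Itgb6 (0.07, 0.016). Below, the values without the block are given, and these genes are described as not called. Whether same-numbered arrays share untreated RNA was not stated, so a change seen with both drugs is not independent evidence for each.

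**Figure D1:**
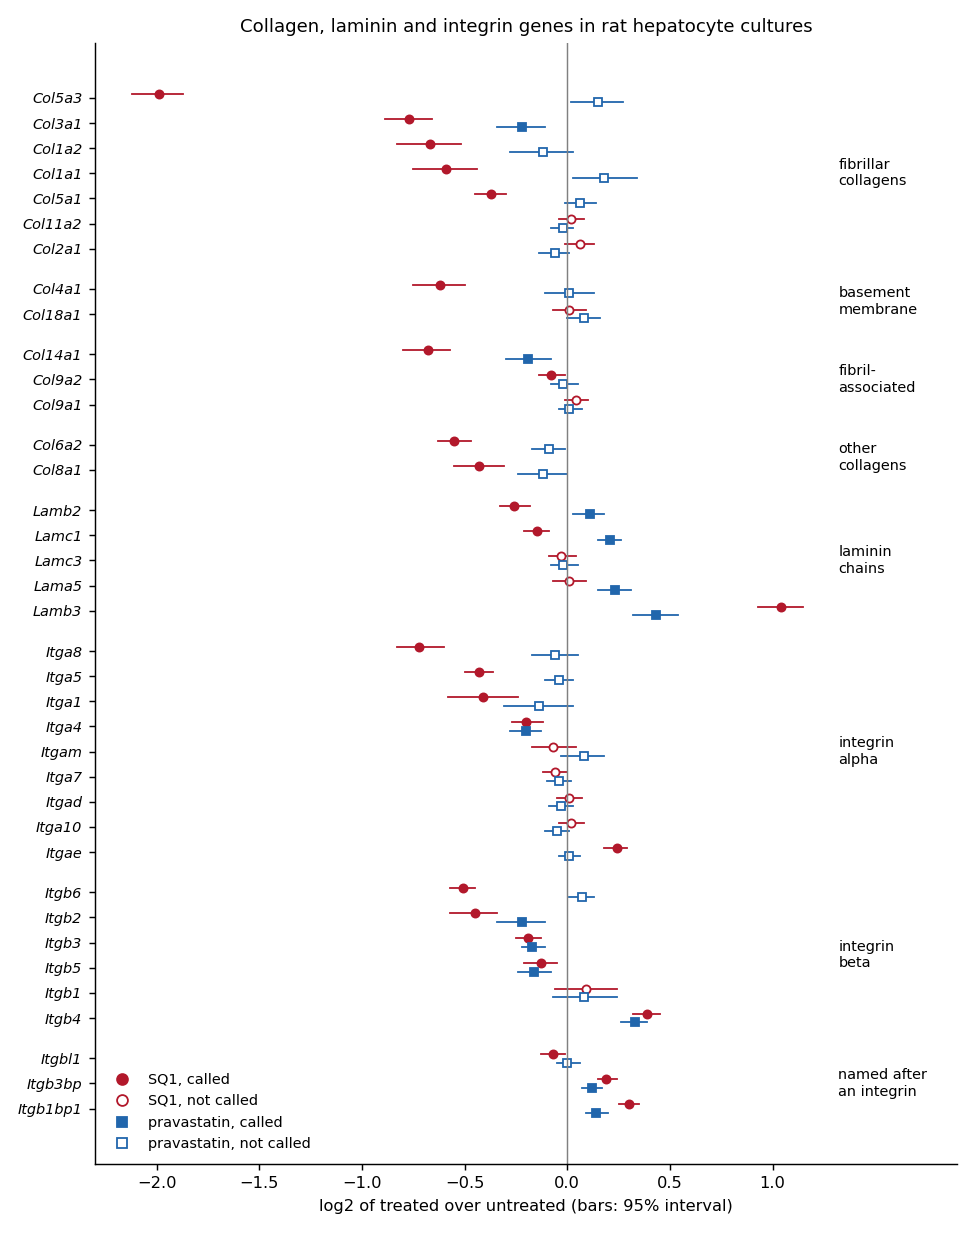
Log2 of treated over untreated for 37 of the 38 genes, grouped by class, with SQ1 as circles and pravastatin as squares; bars are 95% intervals of the fit over 8 arrays per drug and filled symbols were called. Col5a3 lies far to the left with SQ1 (-1.99), Lamb3 to the right with both drugs (1.04 and 0.43), and no gene shown passes 0.58 in size with pravastatin.

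Among the 7 fibrillar collagens, 5 fell with SQ1 and 1 fell with pravastatin, where 31.1% and 20.7% of all genes fell. Col5a3, a minor chain of type V collagen, which starts and thins fibrils, changed more with SQ1 than any other of the 38 genes. Its normalised probe brightness was 234 to 275 in SQ1-treated RNA against 867 to 1172 in the untreated RNA of the same arrays. In pravastatin-treated RNA it was 822 to 1553, against 926 to 1246. The treated range with SQ1 lay wholly below the untreated range, and with pravastatin the ranges overlapped. The log2 ratio with SQ1 was -2.13 at its lowest, -2.02 at the median and -1.82 at its highest, and the fitted change was -1.99 ± 0.06 (SE, n = 8 arrays, adjusted p = 3.2e-15), a 3.98-fold fall. With pravastatin the ratios ran from -0.19 to 0.44 with a median of 0.10, and the fitted change of 0.15 ± 0.06 missed the threshold (adjusted p = 0.058). The pravastatin mean of Col5a3 was -0.04 on the first scan day and 0.33 on the second, while the SQ1 means were -1.91 and -2.08. Without background subtraction the Col5a3 fall with SQ1 was 1.31, with an adjusted p of 8.4e-12.

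The 250 bases before the Col5a3 start site are shown because this gene changed most; they lie at chr8:27625949-27626198 on the minus strand of GRCr8, from RefSeq. Capitals mark a CCAAT box and 3 GC boxes (GGGCGG), found on either strand.

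Col5a3: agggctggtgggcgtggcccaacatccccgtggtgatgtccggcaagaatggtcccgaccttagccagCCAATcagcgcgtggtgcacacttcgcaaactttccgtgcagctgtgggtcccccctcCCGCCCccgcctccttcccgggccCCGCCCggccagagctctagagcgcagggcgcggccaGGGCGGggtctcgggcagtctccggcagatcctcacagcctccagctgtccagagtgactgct

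The chains of the abundant fibrils fell together with SQ1 by less. Col3a1, the single chain of type III collagen, had SQ1 ratios from -1.04 to -0.52 with a median of -0.78, and its fitted change was -0.77 ± 0.05 (adjusted p = 4.3e-10). Col3a1 was also the fibrillar chain that fell with pravastatin, by 0.22 ± 0.05 (adjusted p = 0.0024), with ratios from -0.40 to -0.07. All SQ1 arrays of Col3a1 lay below all pravastatin arrays.

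Type I collagen, the main collagen of scar and bone, is a trimer of Col1a1 and Col1a2 chains. Col1a2 had SQ1 ratios of -1.03 to -0.22 with a median of -0.74 and fell by 0.67 ± 0.07 (adjusted p = 1.9e-07). Col1a1 had ratios of -1.04 to -0.11 with a median of -0.63 and fell by 0.59 ± 0.07 (adjusted p = 1.0e-06). With pravastatin the chains had opposite signs and neither was called: Col1a1 was 0.18 ± 0.07 (adjusted p = 0.053) and Col1a2 -0.12 ± 0.07 (adjusted p = 0.19). For each chain the SQ1 and pravastatin arrays overlapped, and the highest SQ1 array was replicate 1, at -0.11 for Col1a1 and -0.22 for Col1a2. Col5a1, the main chain of type V collagen, fell with SQ1 by 0.37 ± 0.04 (adjusted p = 5.1e-08), with ratios from -0.55 to -0.25, and was 0.06 ± 0.04 with pravastatin. Col2a1 and Col11a2, chains of cartilage collagens, were dim and not called with either drug.

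**Figure D2:**
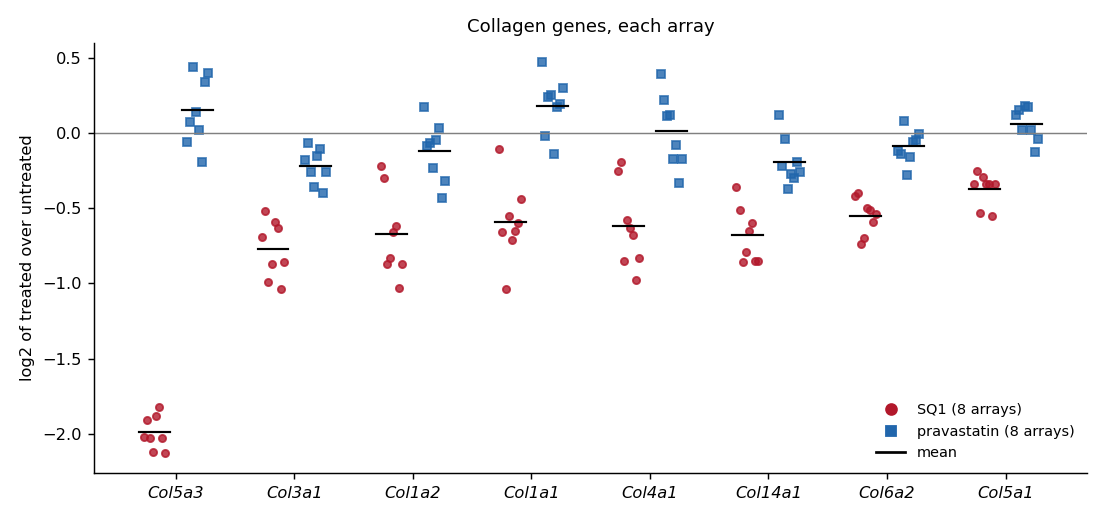
Log2 of treated over untreated on each array for 8 collagen genes, with SQ1 as circles, pravastatin as squares and black lines at the mean of 8 arrays. SQ1 points lie below 0 on every array for each gene, and Col5a3 stands apart at -2.13 to -1.82.

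Of the basement membrane collagens, Col4a1 fell and Col18a1 did not pass the test. Col4a1, 1 of the chains of the type IV mesh, had SQ1 ratios from -0.98 to -0.19 with a median of -0.65, and fell by 0.62 ± 0.06 (adjusted p = 3.3e-08). Its pravastatin ratios ran from -0.33 to 0.39 around a fitted change of 0.01 ± 0.06, so the ranges of the drugs overlapped. Col18a1, whose C-terminal fragment is endostatin, was 0.01 ± 0.04 with SQ1 and 0.08 ± 0.04 with pravastatin (adjusted p = 0.11). The SQ1 change of Col18a1 had opposite signs on the scan days, 0.10 (adjusted p = 0.021) and -0.08 (adjusted p = 0.021), and was 0.16 with arrays centred on their median in place of loess (adjusted p = 2.7e-04).

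The region before Col4a1 is shown because this gene shares it with Col4a2, which is transcribed the other way and had no named probe here. It lies at chr16:84885347-84885596 on the plus strand of GRCr8, from RefSeq. Capitals mark a CCAAT box and a GC box, each read here on the opposite strand.

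Col4a1: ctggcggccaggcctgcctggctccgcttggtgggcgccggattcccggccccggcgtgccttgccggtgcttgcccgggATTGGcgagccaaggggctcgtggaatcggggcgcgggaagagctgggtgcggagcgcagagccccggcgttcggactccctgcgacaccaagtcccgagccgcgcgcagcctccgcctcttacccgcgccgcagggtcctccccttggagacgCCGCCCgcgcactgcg

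Of the remaining 5 collagens, 4 fell with SQ1. Col14a1, which binds to fibril surfaces, had ratios of -0.86 to -0.36 with a median of -0.72 and fell by 0.68 ± 0.05 with SQ1 (adjusted p = 2.3e-09). With pravastatin it fell by 0.19 ± 0.05 (adjusted p = 0.0072) on 7 of 8 arrays, and was 0.12 on replicate 1. Col6a2, a chain of the beaded filaments around cells, had SQ1 ratios of -0.74 to -0.40 and fell by 0.55 ± 0.04 (adjusted p = 6.6e-10), with every SQ1 array below every pravastatin array. Col8a1, a short-chain network collagen, fell by 0.43 ± 0.06 with SQ1 (adjusted p = 2.9e-06) and was -0.12 ± 0.06 with pravastatin (adjusted p = 0.12). The cartilage chain Col9a2 fell by 0.08 ± 0.03 with SQ1 (adjusted p = 0.032), a call lost when SQ1 replicate 1, 2, 4, 5 or 7 was left out (adjusted p 0.051 to 0.097), and its partner Col9a1 was not called. Over all 14 collagen chains, 10 fell and none rose with SQ1, with a median of -0.49, where 31.1% of all genes fell. With pravastatin 2 fell and none rose, with a median of -0.02, where 20.7% of all genes fell.

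Of the 6 laminin chains, 5 rose and none fell with pravastatin, where 20.8% of all genes rose, and 2 rose and 2 fell with SQ1, where 32.7% rose and 31.1% fell. With slide as a random block 4 rose with pravastatin and 1 with SQ1, and with the probes of a gene averaged 3 rose with SQ1. Lamb3 is the beta chain of the epithelial laminin of hemidesmosomes. Its normalised brightness was 659 to 1036 in SQ1-treated RNA and 347 to 443 in the untreated RNA of those arrays. In pravastatin-treated RNA it was 425 to 582, against 351 to 419. Treated and untreated ranges did not overlap for either drug. The SQ1 ratios of Lamb3 ran from 0.75 to 1.30 with a median of 1.05, and it rose by 1.04 ± 0.05 (adjusted p = 4.0e-12), 2.06-fold. With pravastatin the ratios ran from 0.18 to 0.63 with a median of 0.47, and the rise was 0.43 ± 0.05 (adjusted p = 2.6e-06), or 0.26 without background subtraction (adjusted p = 7.5e-05). All SQ1 arrays of Lamb3 lay above all pravastatin arrays.

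The upstream region of Lamb3 is shown as that of the gene that rose most; it lies at chr13:107362303-107362552 on the plus strand of GRCr8, from RefSeq. Capitals mark a CCAAT box, the only match to the 6 motifs searched.

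Lamb3: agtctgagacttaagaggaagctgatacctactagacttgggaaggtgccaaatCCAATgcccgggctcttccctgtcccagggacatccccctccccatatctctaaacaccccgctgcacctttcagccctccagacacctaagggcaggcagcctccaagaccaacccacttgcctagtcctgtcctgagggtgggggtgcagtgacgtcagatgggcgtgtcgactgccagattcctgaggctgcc

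The broadly used chains Lama5, Lamc1 and Lamb2 rose with pravastatin on 8 of 8 arrays, by 0.23 ± 0.04 (adjusted p = 7.6e-05), 0.21 ± 0.03 (adjusted p = 9.0e-06) and 0.11 ± 0.04 (adjusted p = 0.025). The Lamb2 rise lost its call without pravastatin replicate 2 or 3 (adjusted p = 0.082 and 0.085) and on each scan day alone (adjusted p = 0.070 and 0.22).

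With SQ1 none of these 3 chains rose by the only probe of Lama5 and Lamb2 or the brighter of 2 probes of Lamc1. Lamb2 fell by 0.26 ± 0.04 (adjusted p = 4.8e-06), with ratios from -0.49 to 0.00, or by 0.15 without background subtraction (adjusted p = 6.2e-06). Lamc1 fell by 0.15 ± 0.03 (adjusted p = 1.2e-04), with ratios from -0.27 to -0.03, although its other probe rose by 0.36 ± 0.05 (adjusted p = 1.1e-05). Lama5 was 0.01 ± 0.04, with ratios from -0.24 to 0.21. For Lamb2 and Lamc1 every SQ1 array lay below every pravastatin array. Lamc3 was dim and not called with either drug. Median centring in place of loess took Lamc1 with SQ1 (-0.04, adjusted p = 0.34) and Lamb2 with pravastatin (0.09, adjusted p = 0.13) off the list of calls.

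Integrin subunits were sorted by what they bind. The collagen receptor of liver cells pairs Itga1 with Itgb1. Itga1 fell with SQ1 by 0.41 ± 0.08 (adjusted p = 2.2e-04) on 7 of 8 arrays, with ratios from -0.89 to 0.10, and was -0.14 ± 0.08 with pravastatin. Itgb1, the beta subunit shared by most matrix receptors, was 0.09 ± 0.07 with SQ1 (adjusted p = 0.29; 95% interval -0.06 to 0.24) and 0.08 ± 0.07 with pravastatin (-0.07 to 0.24). The Itgb1 ratios of replicate 1 were the lowest with each drug, at -0.44 and -0.34, and without SQ1 replicate 1 the SQ1 change was 0.17 (adjusted p = 0.027). On the first scan day alone, the Itga1 fall was 0.28 and not called (adjusted p = 0.059). Itga10, another collagen receptor subunit, was dim and not called.

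Itgb4 pairs with Itga6 to hold epithelial cells on laminin at hemidesmosomes, and it rose with both drugs. Its SQ1 ratios ran from 0.20 to 0.68 with a median of 0.34, and the rise was 0.39 ± 0.03 (adjusted p = 8.0e-09). With pravastatin they ran from 0.14 to 0.55 with a median of 0.31, and the rise was 0.33 ± 0.03 (adjusted p = 2.9e-07). The drugs' arrays overlapped, and their difference of 0.06 ± 0.05 had a 95% interval of -0.04 to 0.16. Itga7, the other measured laminin receptor subunit, was not called with either drug.

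All 5 measured subunits listed as receptors for the RGD motif of fibronectin and vitronectin fell with SQ1, where 31.1% of all genes fell. Itgb1, the beta partner of Itga5 and Itga8, was counted apart, and its brighter probe did not pass the test with SQ1 (0.09, adjusted p = 0.29). Itga8, a nephronectin and fibronectin receptor subunit found on stellate cells, had ratios of -1.01 to -0.45 with a median of -0.67 and fell by 0.72 ± 0.05 (adjusted p = 1.5e-09). Itgb6, an epithelial subunit that activates latent TGF-beta, had ratios of -0.63 to -0.42 and fell by 0.51 ± 0.03 (adjusted p = 2.7e-11). Itga5, the fibronectin receptor alpha subunit, had ratios of -0.58 to -0.29 and fell by 0.43 ± 0.03 (adjusted p = 2.4e-09). For each of these 3 genes all SQ1 arrays lay below all pravastatin arrays, whose fitted changes were -0.06 ± 0.05 for Itga8, 0.07 ± 0.03 for Itgb6 and -0.04 ± 0.03 for Itga5, none of them called. Without background subtraction the SQ1 falls of Itgb6 and Itga5 were 0.23 and 0.25, with adjusted p-values of 1.9e-09 and 4.9e-09.

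Itgb3 and Itgb5, beta partners of the vitronectin receptor, fell with both drugs. Itgb3 fell by 0.19 ± 0.03 with SQ1 (adjusted p = 7.6e-06) and by 0.17 ± 0.03 with pravastatin (adjusted p = 9.9e-05), on 8 of 8 arrays each. From Agilent's processed signals, to which no offset was added, the Itgb3 falls were 0.61 and 0.38, and without background subtraction they were 0.05 each. Itgb5 fell by 0.13 ± 0.04 (adjusted p = 0.0075) and 0.16 ± 0.04 (adjusted p = 0.0023). The Itgb5 call was lost with SQ1 under median centring (-0.04, adjusted p = 0.45) and with pravastatin on the first scan day alone (-0.12, adjusted p = 0.14).

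Subunits of leukocyte integrins did not share a direction. Itgb2, the beta subunit of phagocyte and lymphocyte integrins, fell by 0.45 ± 0.06 with SQ1 (adjusted p = 1.1e-06), with ratios from -0.94 to -0.04, and by 0.22 ± 0.06 with pravastatin (adjusted p = 0.0036). Itga4, a receptor subunit for VCAM1, fell by 0.20 ± 0.04 with each drug (adjusted p = 8.1e-05 and 1.8e-04), or by 0.43 and 0.40 from the processed signals and 0.06 each without background subtraction. Itgam, a phagocyte partner of Itgb2, was -0.07 ± 0.05 with SQ1 and 0.08 ± 0.05 with pravastatin. Its pravastatin ratio was -0.30 on replicate 2, and without that array the change was 0.13 (adjusted p = 0.023). Itgae, which binds E-cadherin, rose with SQ1 by 0.24 ± 0.03 (adjusted p = 1.6e-07) with ratios from 0.12 to 0.36, and was 0.01 ± 0.03 with pravastatin. Itgae was dim, and its SQ1 rise was 1.15 from the processed signals (adjusted p = 2.9e-05) and 0.06 without background subtraction (adjusted p = 3.9e-06), so its size is not settled. Itgad was dim and not called.

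**Figure D3:**
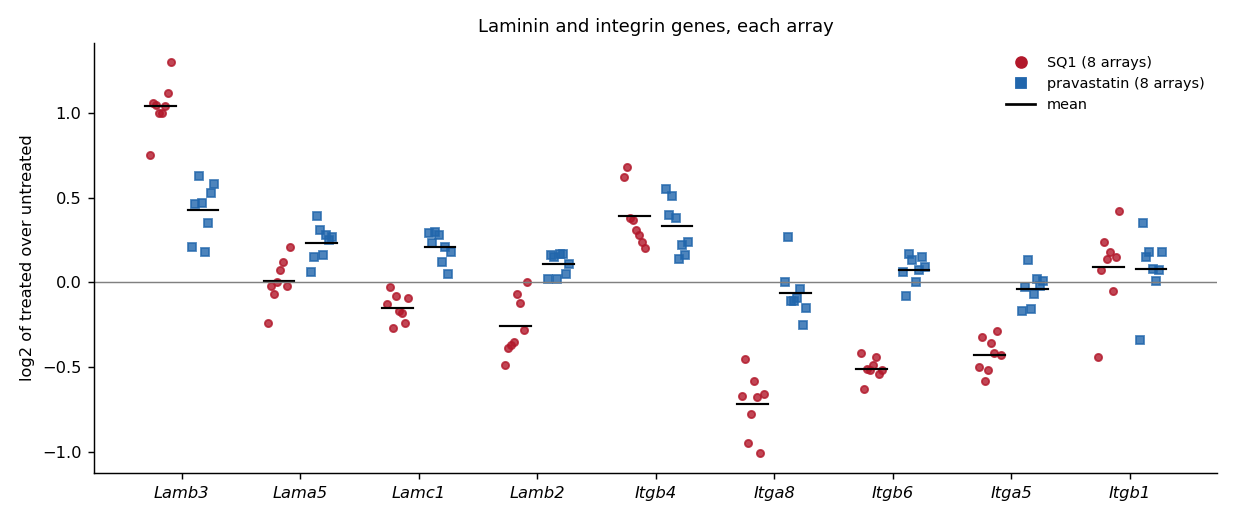
Log2 of treated over untreated on each array for 4 laminin chains and 5 integrin subunits, with SQ1 as circles, pravastatin as squares and black lines at the mean of 8 arrays. Lamb3 and Itgb4 lie above 0 on every array, and Itga8, Itgb6 and Itga5 with SQ1 lie below 0 on every array.

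The 3 genes that carry an integrin in their name but encode no subunit were measured by the same rule. Itgb1bp1, a cytoplasmic protein that binds the Itgb1 tail, rose by 0.30 ± 0.03 with SQ1 (adjusted p = 7.5e-09) and by 0.14 ± 0.03 with pravastatin (adjusted p = 1.7e-04), on 8 of 8 arrays each. Itgb3bp, a centromere protein, rose by 0.19 ± 0.02 (adjusted p = 5.0e-07) and 0.12 ± 0.02 (adjusted p = 2.6e-04). Itgbl1, a secreted protein with integrin-like repeats, was dim; its SQ1 fall of 0.07 ± 0.03 (adjusted p = 0.026) lost its call without SQ1 replicate 1, 2, 3, 6 or 8 (adjusted p 0.051 to 0.095).

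SQ1 and pravastatin were then compared directly, as given, at doses that differ. Of the 38 genes, 3 were higher with SQ1 than with pravastatin (Lamb3, Itgae and Itgb1bp1) and 17 lower, in a background of 18.5% and 19.7% of all genes. At least 1.5-fold differences were called for Col5a3, Col1a1, Itga8, Col4a1 and Lamb3, against 4.20% of all genes. The largest were -2.14 ± 0.08 for Col5a3 (adjusted p = 1.4e-12), -0.78 ± 0.10 for Col1a1 (8.6e-06), -0.66 ± 0.08 for Itga8 (1.8e-06), -0.63 ± 0.08 for Col4a1 (7.4e-06), 0.61 ± 0.07 for Lamb3 (2.2e-06) and -0.58 ± 0.04 for Itgb6 (3.0e-09). Col1a2 and Col3a1 (each -0.55), Col14a1 (-0.49) and Col6a2 (-0.46) completed the 10 largest. From the other probe the difference was -0.17 for Col1a1 (adjusted p = 5.8e-04) and -0.26 for Col14a1 (adjusted p = 1.5e-05). That probe's difference was not called for Col4a1 (-0.12, adjusted p = 0.065) or Itga8 (-0.01, adjusted p = 0.88). Every SQ1 array lay below every pravastatin array for 9 genes and above for 2, Lamb3 and Itgae; over all genes with complete arrays this held for 5.94% and 5.51%.

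Collagens made up 9 of the 17 lower genes and none of the higher ones. Of the laminin chains Lamb3 was higher, while Lamb2 (-0.36 ± 0.05), Lamc1 (-0.35 ± 0.04) and Lama5 (-0.23 ± 0.05) were among the lower ones. The other probe of Lamc1 gave a difference of 0.09 ± 0.08, which was not called (adjusted p = 0.42). For Lama5 the difference was not called on the first scan day alone (adjusted p = 0.059). The Itgb2 difference of -0.23 ± 0.08 (adjusted p = 0.028) lost its call without SQ1 replicate 3, 4, 7 or 8 or pravastatin replicate 5 or 8 (adjusted p 0.052 to 0.063). On the first scan day alone the Itgb2 difference was -0.06 (adjusted p = 0.56). With arrays scaled to one spread it was -0.12 (adjusted p = 0.19), and without the dye term it was not called (adjusted p = 0.13). With the replicate block, 24 differences were called, where it called 49.1% of all genes, and Itga1 (-0.27, adjusted p = 0.0017), Itgam (-0.14, 0.0042), Col2a1 (0.12, 0.027) and Col18a1 (-0.07, 0.038) joined them. No slide held both drugs, so drug and slide cannot be told apart in this contrast.

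For 11 of the 38 genes a second probe passed the filter, and the size of several changes depended on the probe. The values above come from the brighter probe of each gene. With SQ1 the other probe gave -0.12 for Col1a1, -0.09 for Col4a1, -0.08 for Itga8 and -0.33 for Col14a1, each called with the same sign as the brighter probe. The second probe of Itga8 was above background in 10 of 32 channels, and those of Col1a1, Col4a1 and Col14a1 in all 32. Lamc1 had opposite signs with SQ1, -0.15 from the brighter probe and 0.36 ± 0.05 from the other (adjusted p = 1.1e-05), while with pravastatin both rose (0.21 and 0.28). The other probe of Itgb1 rose with SQ1 by 0.23 ± 0.06 (adjusted p = 0.0014), and that of Itgb5 fell by 0.39 ± 0.04. Col5a3, Lamb3, Col1a2 and Col3a1 had 1 probe past the filter each.

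**Figure D4:**
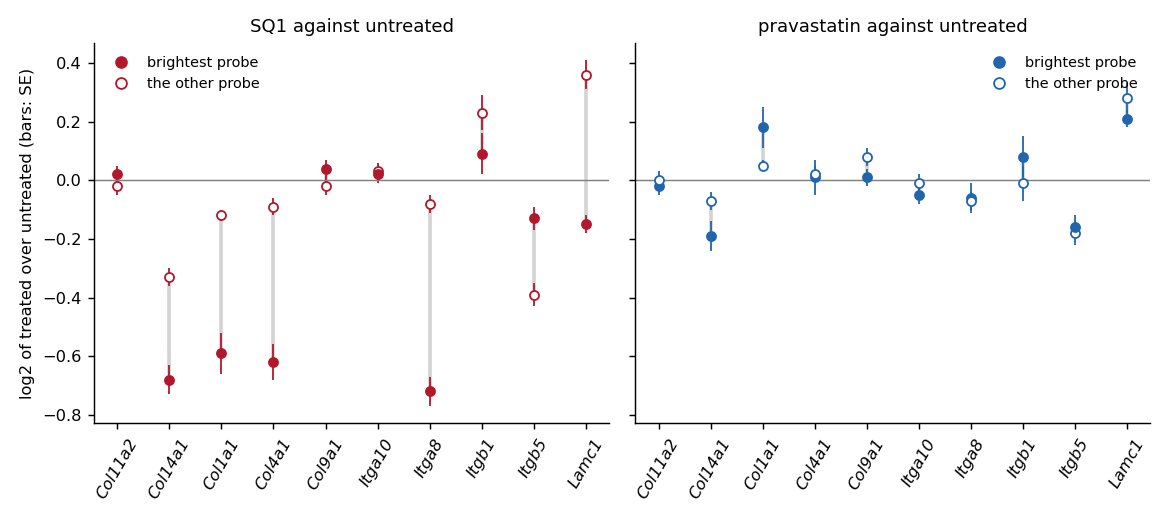
Log2 of treated over untreated from each probe of 10 of the genes with 2 probes past the filter, SQ1 on the left and pravastatin on the right; filled points are the brighter probe, open points the other, bars the SE. With SQ1 the probes of Col1a1, Col4a1, Itga8 and Col14a1 differ in size and those of Lamc1 in sign.

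Genes of the surrounding pathway were counted from lists, to be read against the 32.7% of all genes that rose and 31.1% that fell with SQ1, and the 20.8% and 20.7% with pravastatin. Of 22 measured collagen-modifying enzymes, 14 fell and 5 rose with SQ1, with a median of -0.21, and 7 fell and 3 rose with pravastatin. The lysyl hydroxylases diverged with SQ1: Plod2, which prepares the fibril cross-links, fell by 0.83 ± 0.05 (adjusted p = 4.0e-11), and Plod1 rose by 0.46 ± 0.03 (adjusted p = 2.7e-11). With pravastatin P4hb, a subunit of prolyl hydroxylase, fell by 0.35 ± 0.04 (adjusted p = 2.2e-06) and the galactosyltransferase Colgalt1 rose by 0.19 ± 0.04 (adjusted p = 0.0018). Of 16 other matrix proteins, 12 fell and 1 rose with SQ1, with a median of -0.32, and 4 fell and 2 rose with pravastatin. Vitronectin (Vtn), a plasma and matrix protein of hepatocytes, fell by 1.17 ± 0.04 with SQ1 and by 0.46 ± 0.04 with pravastatin (adjusted p = 4.7e-14 and 7.5e-08). Agrn, a basement membrane proteoglycan, rose with pravastatin by 0.22 ± 0.03 (adjusted p = 6.5e-05), and with SQ1 the netrin Ntn4 rose by 0.09 ± 0.03 (adjusted p = 0.020).

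Of 17 matrix proteases and inhibitors, 2 rose and 8 fell with SQ1 and 6 rose and 3 fell with pravastatin. The inhibitor Timp3 rose by 0.67 ± 0.04 and Timp4 fell by 0.77 ± 0.07 with SQ1 (adjusted p = 3.0e-11 and 4.2e-08). With pravastatin the protease Adamts1 rose by 0.47 ± 0.04 (adjusted p = 9.4e-09) and Timp4 fell by 0.50 ± 0.07 (adjusted p = 3.0e-05). Of 25 proteins at integrin adhesions, 6 rose and 14 fell with SQ1 and 4 rose and 10 fell with pravastatin. Parvb, an actin-binding adaptor of the integrin-linked kinase complex, rose with both drugs, by 0.74 ± 0.03 and 0.42 ± 0.03 (adjusted p = 1.2e-12 and 1.4e-08). The kinase Ptk2b fell by 0.61 ± 0.06 with SQ1 and the leukocyte parvin Parvg by 0.44 ± 0.04 with pravastatin (adjusted p = 5.1e-08 and 2.6e-08). Of 11 other matrix receptors, 5 rose and 4 fell with SQ1 and 3 rose and 2 fell with pravastatin. The syndecan Sdc4 fell by 0.66 ± 0.05 and the hyaluronan receptor Cd44 rose by 0.38 ± 0.05 with SQ1 (adjusted p = 4.6e-09 and 2.6e-06). With pravastatin Sdc4 fell by 0.17 ± 0.05 (adjusted p = 0.016) and the collagen-binding kinase Ddr2 rose by 0.16 ± 0.05 (adjusted p = 0.0098).

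Markers of other cells were counted in the same cultures, beside 32.7% of all genes that rose and 31.1% that fell with SQ1. With pravastatin these shares were 20.8% and 20.7%. In these bulk cultures, fewer cells of a type and less RNA per cell cannot be told apart. All 10 measured markers of stellate cells and fibroblasts fell with SQ1, by 0.14 to 0.83 with a median of -0.29, and 5 fell and none rose with pravastatin. The largest SQ1 falls were in Pdgfra (-0.83), Lrat (-0.81), Pdgfrb (-0.71) and Acta2 (-0.60). Their summed brightness was 11470 to 22374 in SQ1-treated RNA against 15980 to 25787 untreated, and 14734 to 21007 with pravastatin against 16678 to 24260, ranges that overlapped; Lum, Thy1 and Ngfr had dim probes. The part of these cells in the collagen falls was not tested. All 13 measured macrophage markers fell with both drugs, with a median of -0.58 for SQ1 and -0.85 for pravastatin. Their summed brightness was 44827 to 68448 with SQ1 against 62070 to 114015, and 42981 to 52335 with pravastatin against 68425 to 104034. The part of these cells in the values of Itgb2, Itgam and Itga4 was not tested.

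Of 5 endothelial markers past the filter, 4 fell with SQ1 and 2 with pravastatin, with summed brightness of 1909 to 2730 against 2402 to 3835 for SQ1 and 2055 to 4172 against 2291 to 4223 for pravastatin. Tek, Tie1 and Emcn were dim. Of 8 cholangiocyte markers, which are epithelial like Lamb3 and Itgb4, 2 rose and 4 fell with SQ1 and 4 rose and 1 fell with pravastatin. Epcam rose by 0.57 and 0.36, while the cytokeratin Krt19 was 0.04 and 0.01 and not called. Their summed brightness was 29038 to 35382 with SQ1 against 19596 to 24877, and 23730 to 33720 with pravastatin against 19218 to 26014; their part in the Lamb3 and Itgb4 rises was not tested. All 10 hepatocyte markers fell with SQ1, with a median of -0.59, from a summed brightness of 981554 to 1507110 to one of 681743 to 1077746. These ranges overlapped, and with SQ1 Ttr was below 0 on 4 of 8 arrays and Alb and Tf on 6 of 8. With pravastatin 7 of the 10 hepatocyte markers fell and 2 rose. Of mesothelial, lymphocyte, neutrophil and platelet markers 4 each passed the filter: with SQ1 1 rose and 1 fell, none rose and 1 fell, 1 rose and 2 fell, and none moved. With pravastatin the counts were 1 up, 1 down, 2 down, and 1 up and 1 down. Over all genes 32.7% rose and 31.1% fell with SQ1, and 20.8% rose and 20.7% fell with pravastatin.

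**Figure D5:**
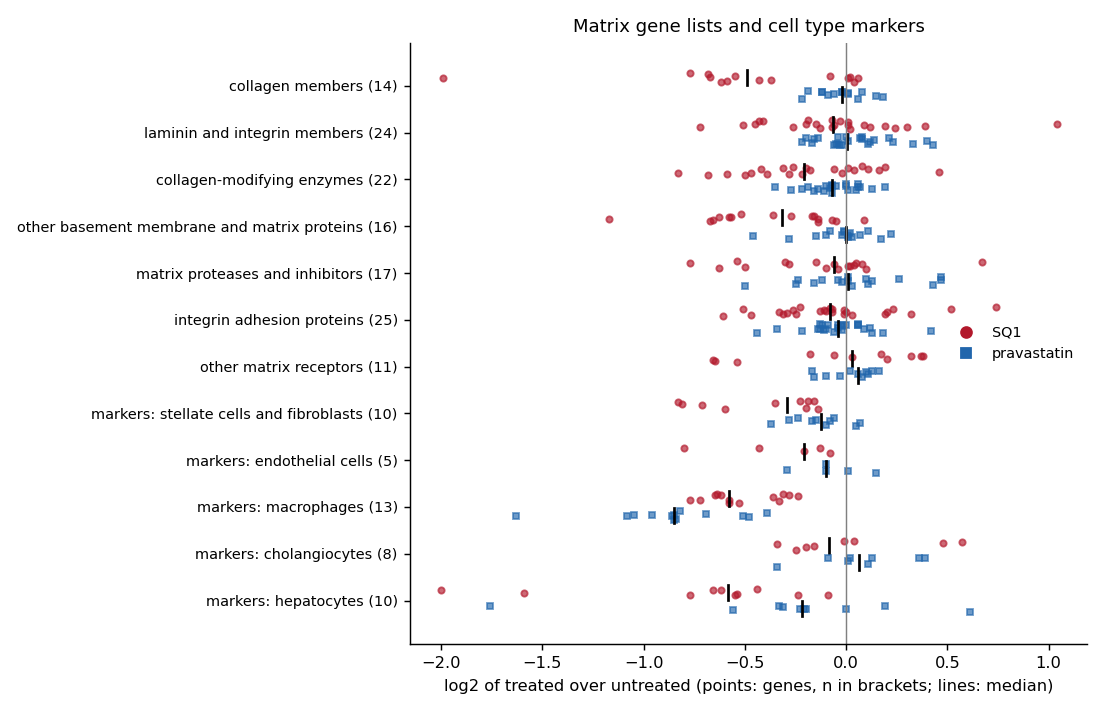
Log2 of treated over untreated for each gene of the members, of 5 matrix lists and of 5 cell type marker lists, with SQ1 as circles, pravastatin as squares and black lines at list medians. The 14 collagens have an SQ1 median of -0.49; stellate cell, macrophage and hepatocyte markers with SQ1 all lie below 0.

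Promoters of 26 of the 38 genes were in the RefSeq table, and the 250 bases before each start were searched on both strands for 6 motifs. CCAAT was found in Col1a2, Col4a1, Col5a3, Itgb3bp and Lamb3, against 34.3% of the 27457 promoters. The GC box GGGCGG was found in 13 of the 26, against 32.4%, with 5 matches in Lamc1 and 4 each in Col8a1, Itgb1 and Lama5. The TATA box TATAAA was found in Col1a2 (13.1% of all), and GGAATG, the TEAD motif, in Col11a2, Itga10, Itgb1, Itgb1bp1 and Lamc1 (11.8%). TGANTCA, the AP-1 site, and TCACNCCAC, a sterol regulatory element, were found in none of the 26 windows, against 6.36% and 0.976% of all. These are matches of letters, not measured binding sites.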

How the data were processed

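RNA was amplified and coupled to Alexa dyes, per the labels' protocols, and the authors read the scans with Agilent Feature Extraction 10.7.1.1, as the headers state. In the scanner files they deposited are spot and local background intensity in arbitrary units and a ratio as log10 of red over green, per the file headers. The deposited value table holds log2 of treated over untreated; its centring is not stated (column medians -0.06 to 0.10), and it served as an alternative.

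Medians of spots were corrected by normexp (offset 50), which shrinks ratios of dim probes, and normalised by loess in limma 3.58.1 (R 4.3.3). Spots flagged as non-uniform in signal or background were left out, 32 to 181 an array including controls; their local background entered the correction as the array's median, a step chosen after the data were seen. RefSeq accessions named 17998 probes and left 12369 unnamed. The brightest probe stood for a gene. The gene counts include 1 gene whose own values are not reported here. limma fitted a term for each drug and for dye over 16 arrays; p-values were adjusted by Benjamini-Hochberg over all genes, two-sided. Residuals of same-numbered arrays, which share a control number in their file names, correlated at 0.157 to 0.643. The numbers were taken to pair the arrays in the block fits, though SQ1 replicates 2, 7 and 8 correlated more with another number. The fit without the block did not use this pairing. The number of arrays limits the precision. Arrays were scanned on 2 days; each of 4 slides held 1 drug and 1 day.

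The genes, lists and tests were chosen with earlier results of these data known. Values were given for the 3 largest called changes of at least 1.5-fold per class, the 10 largest differences between drugs and chains that assemble together, and for others by the same measures; list genes were the largest change each way by drug.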

Additional observations from a re-analysis of the deposited data

Results flagged for a closer look

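In 2 of the 76 groups of 8 arrays examined, 1 array stood far from the rest by Dixon's criterion, where chance alone gives about 1 in 20 groups. Itga10 had a log2 ratio of -0.16 on SQ1 replicate 5, with the nearest array at -0.01, and the gene is dim. Itgam had a log2 ratio of -0.30 on pravastatin replicate 2, with the nearest array at 0.03.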

How the results depend on the processing

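Of 114 gene results (38 genes in 3 comparisons), 78 kept their call and direction under every alternative, among them Col5a3 and Lamb3 with SQ1 and in the direct comparison. The fixed replicate block changed the number called with pravastatin from 14 to 22, with SQ1 to 30 and in the difference to 24; it removed no call, and the calls it added are given above. Leaving out 1 array gave 25 to 27 called with SQ1, 14 to 17 with pravastatin and 19 to 22 between drugs. Lamc1 with SQ1 turned to 0.11 when its probes were averaged (adjusted p = 0.0087), since they differ in sign. Col18a1 with SQ1, which was not called over all arrays, was -0.08 on the second scan day (adjusted p = 0.021); the cause was not tested. Averaging probes brought Col1a1, Col4a1 and Itga8 with SQ1 to -0.36, -0.36 and -0.40, and the other probe of Col14a1 alone gave -0.33. Background treatment set the size of dim genes: the members' median with SQ1 was -0.25 from Agilent's processed signals and -0.05 with no background subtracted, with 26 called each. Keeping the uneven local backgrounds of flagged spots in the correction, an alternative added after seeing the data, called 27, 14 and 21. Slide as a random block called 24, 13 and 19.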
